A study of Homo sapiens with 4 samples.

Results

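The interleukin-6 (IL6) family of cytokines and the JAK-STAT3 pathway behind it were examined through 10 genes in TE5 cells, an established human line grown from a squamous carcinoma of the oesophagus. The genes were taken by symbol from the 55764 gene names of the deposited expression table: the ligands IL6 and LIF, the receptor chains IL6ST, LIFR and OSMR, the kinases JAK1 and JAK2, the transcription factor STAT3, and the inhibitors SOCS1 and SOCS3. Bulk RNA-seq was available for 2 libraries of TE5 cells carrying a lentiviral vector that expresses ETS1, an ETS family transcription factor, and for 2 control libraries of TE5 cells carrying the empty backbone, whose genotype the labels give as WT. The protocol describes lentiviral infection, while the design text speaks of a plasmid. The labels name a CMV promoter for the ETS1 vector, mention selection before sequencing, and do not say whether each group is 1 clone or a pool, or whether the numbered libraries are separate cultures, so p-values measure the spread between these libraries, which may be technical. The study set out to find transcript changes that accompany stable ETS1 overexpression.

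IL6 family cytokines signal through receptor complexes that contain gp130, the protein made by IL6ST. Ligand binding brings together JAK kinases attached to the receptor tails, the kinases phosphorylate STAT3, and phosphorylated STAT3 dimers activate genes in the nucleus, among them SOCS3, whose product inhibits the receptor complex. IL6 needs the ligand-binding chain IL6R beside gp130, LIF needs LIFR, and oncostatin M can use OSMR or LIFR. Phosphorylation is not measured by RNA-seq, so the values below are transcript levels and not pathway activity.

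By separation of the groups, the receptor chains, both kinases, STAT3 and both SOCS genes were higher in the ETS1 libraries. LIF was not, and IL6 was close to absent in every library. Levels are given in FPKM, which divides a gene's fragments by its length and by the library total, so genes can be compared with each other. Of the 10 genes, 8 had both ETS1 values above both control values and 1, LIF, had both below, while only IL6 overlapped. Across the 35055 genes above 0 in at least 1 library, 31.7% were separated upwards in this way and 24.2% downwards, and across the genes tested below these shares were 43.1% and 38.9%. The test, limma on log2(FPKM + 1), is a linear model that shares variances across genes, and it was run on genes averaging 1 FPKM or more, which 5 of the 10 did. Of these 5, IL6ST, LIFR, JAK1 and STAT3 rose and LIF did not pass at a Benjamini-Hochberg adjusted p under 0.05. The LIFR call did not hold with a trend on gene length and GC content removed, as given below. Over all 14306 genes tested, 30.7% were called higher and 28.4% lower, so calls of either direction were common in this comparison. With trimmed-mean scaling of the libraries 3587 genes were called higher and 4771 lower, against 4394 and 4057.

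**Figure D1:**
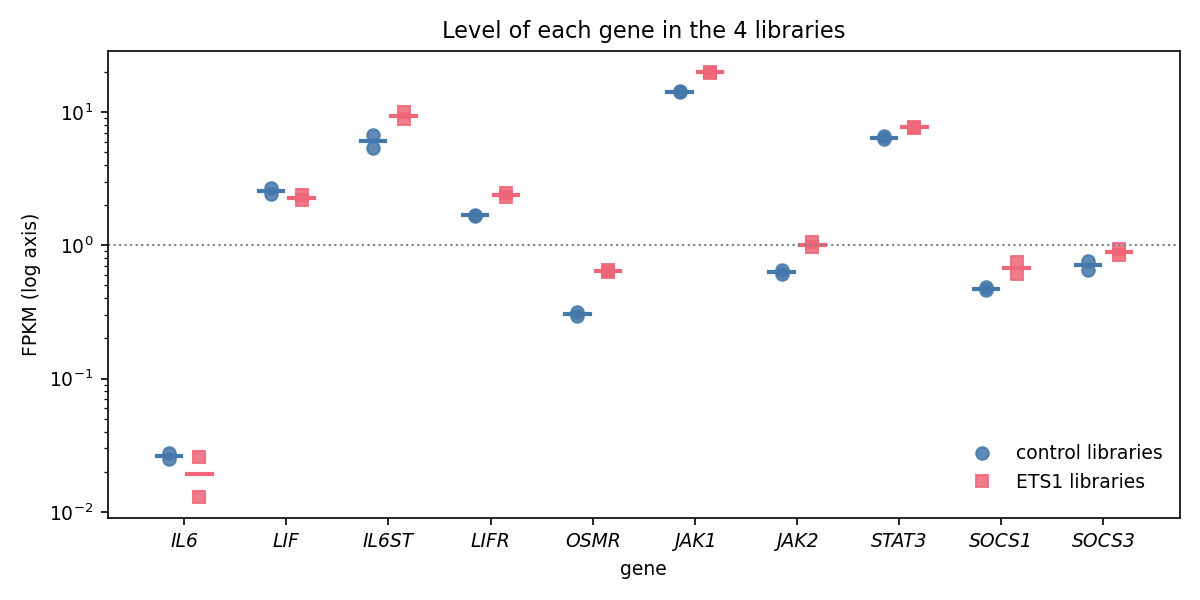
FPKM of the 10 genes (log axis) in the 2 control libraries (blue circles) and the 2 ETS1 libraries (red squares), with a short bar at each group mean and a dotted line at the filter of 1 FPKM. JAK1 stands highest at 14.2 and 19.9 FPKM and IL6 lowest, below 0.03 FPKM in each library.

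ETS1 itself was checked first. It had 0.491 and 0.509 FPKM in the controls and 1.84 and 1.87 FPKM in the ETS1 libraries. The means were 0.500 ± 0.0129 and 1.85 ± 0.0176 FPKM (SD, n = 2 libraries), a ratio of 3.71, and limma gave a change of 0.93 on the log2(FPKM + 1) scale (adjusted p 7.04e-04, and 0.00847 with no filter). ETS1 entered the filtered test through its higher group. The ETS1 libraries were deeper, with 57269984 and 56502875 recovered reads against 40356723 and 44119604 in the controls. Of 6 epithelial markers, 4 (EPCAM, CDH1, KRT8 and KRT18) reached 1 FPKM in a library, and the list summed to 16.1 FPKM or more in every library. The other 2, KRT19 and KRT7, stayed under 0.1 FPKM in every library. Of 8 squamous markers SOX2 alone reached 1 FPKM, and the other 7, which include KRT5, KRT14 and TP63, stayed under 0.1 FPKM in every library although the label is squamous; the list summed to 2.81 to 3.22 FPKM in the controls and 3.62 to 3.91 FPKM in the ETS1 libraries. Markers of other cells were low. Of 8 leukocyte markers 6 stayed under 0.1 FPKM in every library. The summed level of 7 fibroblast markers was 2.20 to 2.35 FPKM in the controls and 3.17 to 3.28 FPKM in the ETS1 libraries, with COL1A1 alone above 1 FPKM and 4 under 0.1 FPKM. The 4 endothelial markers found summed to 0.0604 to 0.0642 FPKM and 0.109 to 0.127 FPKM. The part of these markers in the results below was not tested. In bulk RNA, fewer cells that express a gene and less RNA per cell cannot be told apart.

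Promoter sequence was examined because the perturbed factor is a DNA-binding protein and because members of the group were higher together. RefSeq promoters (build GRCh38.p14) were found for 9 of the 10 genes, all but LIF, in 17 windows of 250 bases that end just before an annotated start. The ETS core letters CCGGAA, searched on both strands (the reverse strand reads TTCCGG), occurred in 5 of these windows and in 4 of the 9 genes: IL6ST, JAK1, STAT3 and SOCS3. Among all RefSeq windows of this length 14.5% held it, and among all genes with a window 17.2%. The share by gene is not like for like, since all genes had 35116 windows for 27305 genes, fewer per gene. The remaining window of JAK1 and that of SOCS3 held no core. IL6, LIFR, OSMR, JAK2 and SOCS1 had no such letters in their windows. The 5 windows are printed 5′ to 3′ on the gene's strand, with the ETS core in capitals, to show where it lies. They are chr5:55994964-55995213 (minus strand) for IL6ST, chr1:65067747-65067996 and chr1:64966550-64966799 (both minus) for an upstream and a downstream start of JAK1, chr17:42388443-42388692 (minus) for STAT3 and chr17:78360926-78361175 (minus) for SOCS3.
IL6ST: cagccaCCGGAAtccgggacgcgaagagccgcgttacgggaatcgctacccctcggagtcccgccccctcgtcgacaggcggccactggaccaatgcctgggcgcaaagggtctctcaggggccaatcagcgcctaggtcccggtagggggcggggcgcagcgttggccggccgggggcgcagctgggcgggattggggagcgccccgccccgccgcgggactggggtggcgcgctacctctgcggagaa
JAK1 upstream start: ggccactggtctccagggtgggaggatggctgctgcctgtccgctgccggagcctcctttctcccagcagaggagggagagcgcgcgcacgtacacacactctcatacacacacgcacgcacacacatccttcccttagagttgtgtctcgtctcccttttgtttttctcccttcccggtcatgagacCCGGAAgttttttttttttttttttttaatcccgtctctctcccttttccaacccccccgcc
JAK1 downstream start: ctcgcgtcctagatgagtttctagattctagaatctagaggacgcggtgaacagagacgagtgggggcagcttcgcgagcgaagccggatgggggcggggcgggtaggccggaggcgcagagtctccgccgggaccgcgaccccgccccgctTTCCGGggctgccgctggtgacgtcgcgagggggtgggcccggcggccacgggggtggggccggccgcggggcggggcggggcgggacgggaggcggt
STAT3: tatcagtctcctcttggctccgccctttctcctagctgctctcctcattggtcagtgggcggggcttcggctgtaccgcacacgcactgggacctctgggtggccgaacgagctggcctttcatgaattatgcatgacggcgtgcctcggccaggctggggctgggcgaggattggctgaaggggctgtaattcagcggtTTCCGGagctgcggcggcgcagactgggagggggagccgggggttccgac
SOCS3: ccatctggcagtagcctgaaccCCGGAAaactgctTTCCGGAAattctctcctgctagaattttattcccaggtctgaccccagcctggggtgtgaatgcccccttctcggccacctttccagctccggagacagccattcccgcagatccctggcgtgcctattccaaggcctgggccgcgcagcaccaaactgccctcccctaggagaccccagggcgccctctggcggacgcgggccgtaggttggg
Counting back from the start, the first base of the core lies at -244 in IL6ST, at -62 and -98 in the JAK1 windows and at -50 in STAT3. In SOCS3 there are 3 matches, at -228, -215 and -213, and the last pair overlaps. The STAT element TTCNNNGAA, which reads the same on the other strand, was found in the windows of 1 gene, LIFR, against 8.09% of all genes. A match is a description of the letters and was not tested as a binding site.

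IL6 and LIF, the ligands among the 10 genes, were not higher. IL6 (chromosome 7, 22725884 to 22732002, GENCODE 29 on GRCh38), the founding cytokine of the family, had 0.0274 and 0.0250 FPKM in the controls and 0.0257 and 0.0130 FPKM in the ETS1 libraries. These values correspond to 3 and 3 reads against 4 and 2 reads, as recovered with the gene length nearest that of GENCODE 29, and the groups overlapped. Summed over libraries, 6 reads of 84476327 stood against 6 of 113772859, a ratio of 0.742 with an exact 95% interval of 0.198 to 2.78 that covers counting error only. A difference in IL6 within that interval was not detectable at this depth. LIF (chromosome 22, 30240447 to 30246851), a cytokine that acts through LIFR and gp130, had 2.43 and 2.71 FPKM in the controls and 2.37 and 2.20 FPKM in the ETS1 libraries. Both ETS1 values lay below both control values. The means were 2.57 ± 0.195 and 2.28 ± 0.122 FPKM (SD, n = 2 libraries), and the log2 change of -0.12 was not past the spread between replicates (95% interval -0.29 to 0.041, limma adjusted p 0.155). The LIF change was -0.066 without control replicate 2 and -0.18 without control replicate 1. It stayed above the threshold under all 17 alternatives that tested it, with adjusted p-values from 0.0709 to 0.817.

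Of the 11 listed ligand genes, IL6 and LIF included, 3 reached the filter. CTF1, which encodes the cytokine cardiotrophin-1, had 4.74 and 4.45 FPKM in the controls and 5.73 and 5.88 FPKM in the ETS1 libraries, and rose by 0.28 on the log2 scale (limma adjusted p 0.00531). IL11, another gp130 cytokine, is named here after its values were seen. It had 0.398 and 0.517 FPKM in the controls and 0.900 and 0.773 FPKM in the ETS1 libraries. It was under the filter, and the authors' deposited table lists 0.62 as its log2 fold change (adjusted p 0.0159). IL11 also passed in limma with the filter at 0.5 FPKM (0.33, adjusted p 0.0261) and in voom on recovered reads (0.86, adjusted p 0.00408). It missed the threshold in limma with no filter (0.33, adjusted p 0.0703). Its control mean of 0.457 FPKM lay under 0.5, so IL11 entered the test with that filter through its higher group, the ETS1 libraries. The genes of the deposited table also average at least 0.500 FPKM.

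Of the 3 receptor chains among the 10 genes, IL6ST (chromosome 5, 55935095 to 55994993), the shared signalling chain gp130, had the highest level. It measured 6.70 and 5.42 FPKM in the controls and 8.92 and 9.93 FPKM in the ETS1 libraries, and the recovered reads were 2518 and 2226 against 4754 and 5225. The groups did not overlap, though the controls differed from each other by more than the ETS1 libraries did on the log scale. The means were 6.06 ± 0.907 and 9.42 ± 0.718 FPKM (SD, n = 2 libraries), a ratio of 1.55, and limma gave a change of 0.57 on the log2(FPKM + 1) scale (standard error 0.101, adjusted p 0.00805). With no filter on low genes the IL6ST call was lost (adjusted p 0.0544). The change was 0.43 without control replicate 2 and 0.70 without control replicate 1. LIFR (chromosome 5, 38474963 to 38608354), which pairs with gp130 to bind LIF, had 1.67 and 1.68 FPKM in the controls and 2.31 and 2.45 FPKM in the ETS1 libraries. The 2 libraries of each group lay close together and the groups did not overlap. The means were 1.68 ± 0.00987 and 2.38 ± 0.0980 FPKM (SD, n = 2 libraries), a ratio of 1.42, and the log2 change was 0.34 (standard error 0.0525, limma adjusted p 0.00531). The LIFR call was lost once a trend on gene length and GC content was removed (0.082, limma adjusted p 0.179). LIFR overlaps LIFR-AS1 on the other strand in GENCODE 29, as all of the 10 genes but STAT3 and SOCS3 overlap some annotated gene, and whether the counting used strand is not given in the sources used here.

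OSMR (chromosome 5, 38845858 to 38945596), the oncostatin M receptor chain which lies near LIFR on the same chromosome, showed the largest relative difference of the 10 genes at a low level. It had 0.314 and 0.294 FPKM in the controls and 0.654 and 0.631 FPKM in the ETS1 libraries, a ratio of 2.11. The reads behind these values were 91 and 93 against 269 and 256. The replicates lay close together and the groups were far apart, with means of 0.304 ± 0.0145 and 0.642 ± 0.0164 FPKM (SD, n = 2 libraries). OSMR was under the filter, so it has no value in that test. Without the filter limma gave a change of 0.33 on the log2(FPKM + 1) scale (adjusted p 0.0249). In that fit 4 of the 10 genes, LIFR, OSMR, JAK1 and STAT3, were called higher and 0 lower, against 10.3% and 9.24% of 35055 genes. A fit to the whole reads recovered from FPKM (limma's voom, over 20229 genes with a mean of at least 10 reads, of which 28.8% were called higher and 23.6% lower) gave 1.08 on the log2 scale for OSMR (standard error 0.142, adjusted p 4.74e-05). That fit included 9 of the 10 genes and called 6 higher and 0 lower: IL6ST, LIFR, OSMR, JAK1, JAK2 and STAT3. OSMR overlaps RICTOR on the other strand, so reads of this gene pair may not be separated. OSM, the gene of its ligand and named after its values were seen, had 8, 9, 11 and 3 reads, the first pair in the controls.

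IL6R, the ligand-binding chain for IL6 and also named after its values were seen, was at 0.671 and 0.685 FPKM in the controls and 1.34 and 1.30 FPKM in the ETS1 libraries. Its mean over the 4 libraries fell just under the filter, and voom on recovered reads gave a change of 0.96 (adjusted p 9.70e-06). Not all receptors of the family were higher. Over the 8 listed receptor genes 5 were tested, of which IL6ST and LIFR rose, IL27RA and IL11RA fell and CNTFR did not pass, beside 30.7% higher and 28.4% lower over all tested genes. With the length and GC trend removed 1 receptor, IL6ST, was called higher. IL27RA, the interleukin-27 receptor chain that pairs with gp130, went from 4.78 and 5.17 FPKM to 3.83 and 3.90 FPKM (log2 change -0.30, limma adjusted p 0.00595). IL11RA, the interleukin-11 receptor chain, went from 6.32 and 5.90 FPKM to 5.29 and 5.33 FPKM (log2 change -0.17, limma adjusted p 0.0244). The IL11RA call was lost under 5 of 18 alternatives, with an adjusted p of up to 0.104, among them the fits without control replicate 1 (0.0729), ETS1 replicate 1 (0.104) and ETS1 replicate 2 (0.0969), and with the replicate block (0.0502). The median log2 change of the tested receptor list was 0.089, against 0.016 over all tested genes.

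**Figure D2:**
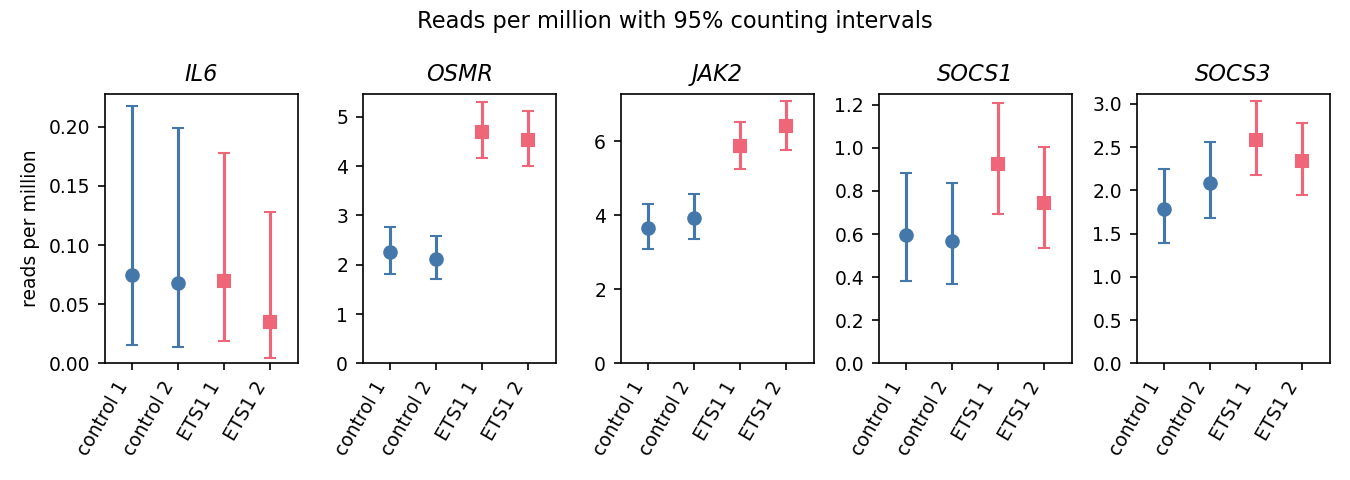
Recovered reads in each library, scaled by its total, for the 5 genes under the filter, with exact 95% Poisson intervals for counting error and axes that start at 0 and differ between panels. The intervals of the 2 groups are apart for OSMR and JAK2, and they overlap for IL6, SOCS1 and SOCS3.

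JAK1 (chromosome 1, 64833229 to 64966504), a kinase used by all gp130 receptors, was the most abundant of the 10 genes and had the smallest standard error of the 5 tested. It had 14.3 and 14.2 FPKM in the controls and 20.0 and 19.8 FPKM in the ETS1 libraries, with 3636 and 3943 reads against 7220 and 7079. The replicates lay close together and both ETS1 values were above both controls. The means were 14.2 ± 0.0813 and 19.9 ± 0.0881 FPKM (SD, n = 2 libraries), a ratio of 1.40, and the log2 change was 0.46 (standard error 0.0279, 95% interval 0.39 to 0.53, limma adjusted p 6.32e-04). With the median change of its chromosomal neighbours removed the JAK1 change was 0.27 (adjusted p 0.00181). Over the 4 JAK1 values alone, an exact two-sided permutation test cannot go below the 0.333 that it gave, since there are 6 arrangements. JAK2 (chromosome 9, 4984390 to 5128183), another kinase that associates with gp130, had 0.605 and 0.650 FPKM in the controls and 0.967 and 1.06 FPKM in the ETS1 libraries (148 and 174 reads against 336 and 362). The groups did not overlap, with means of 0.628 ± 0.0323 and 1.01 ± 0.0629 FPKM (SD, n = 2 libraries) and a ratio of 1.61. JAK2 was under the filter of 1 FPKM. It passed in limma with the filter at 0.5 FPKM (adjusted p 0.0180) and in voom on recovered reads (0.68, adjusted p 3.95e-04), and missed the threshold in limma with no filter (adjusted p 0.0537). In the authors' deposited table its log2 fold change is 0.58 (adjusted p 8.73e-04). That table tested 8 of the 10 genes and called 5 higher and 0 lower, against 25.3% and 25.9% of 15683 genes. The other JAK family members did not pass. TYK2, at 28.9 and 29.4 FPKM in the controls and 28.5 and 28.7 FPKM in the ETS1 libraries, had a log2 change of -0.027 (95% interval -0.097 to 0.043, limma adjusted p 0.426), which turned to 0.091 with the median change of its chromosomal neighbours removed (adjusted p 0.0444) and was -0.075 on recovered reads with a length and GC trend removed (adjusted p 0.0437). JAK3 had a change of 0.09 (95% interval -0.079 to 0.26, limma adjusted p 0.283). Whether JAK1 and TYK2 differ in their change was not tested, though their intervals do not overlap.

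STAT3 (chromosome 17, 42313324 to 42388568), the main transcription factor of the pathway, rose in smaller measure than JAK1, a difference that was not tested. It had 6.64 and 6.24 FPKM in the controls and 7.75 and 7.65 FPKM in the ETS1 libraries, with 2363 and 2431 reads against 3920 and 3817. The ETS1 libraries lay above both controls. The means were 6.44 ± 0.277 and 7.70 ± 0.0717 FPKM (SD, n = 2 libraries), a ratio of 1.20, and the log2 change was 0.23 (standard error 0.0409, limma adjusted p 0.00836). Among the other STAT genes, STAT2, which carries interferon signals, rose by 0.42 (limma adjusted p 0.00128) and STAT6, the interleukin-4 factor, by 0.23 (0.00454). STAT4 went from 1.16 and 1.22 FPKM to 0.803 and 0.810 FPKM (log2 change -0.28, limma adjusted p 0.0172), and it entered the test through its higher group, the controls. The STAT4 call was lost without control replicate 2 (adjusted p 0.0660), ETS1 replicate 1 (0.0740) or ETS1 replicate 2 (0.0736), and with no filter (0.0560). STAT5B had a change of 0.0066 (95% interval -0.067 to 0.081, limma adjusted p 0.855).

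The inducible inhibitors were low in both groups. SOCS3 (chromosome 17, 78356778 to 78360077), which binds gp130 and JAKs and is itself a STAT3 target, had 0.652 and 0.762 FPKM in the controls and 0.944 and 0.853 FPKM in the ETS1 libraries (72 and 92 reads against 148 and 132). SOCS1 (chromosome 16, 11254405 to 11256200), an inhibitor of JAK activity, had 0.484 and 0.462 FPKM in the controls and 0.754 and 0.605 FPKM in the ETS1 libraries (24 and 25 reads against 53 and 42). The ETS1 values of both genes were above the controls, with ratios of 1.27 and 1.44, and their counting intervals, scaled by library total, overlapped. Neither passed a test in which it was included: the adjusted p-values for SOCS3 ran from 0.0578 to 0.332 and for SOCS1 from 0.0861 to 0.395. The authors' deposited table gives log2 fold changes of 0.18 and 0.14 for SOCS3 and SOCS1, below the 0.34 and 0.50 that voom gave on recovered reads, and whether it shrinks fold changes is not given in the sources used here.

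Of the other SOCS genes, SOCS4, SOCS5, SOCS6 and SOCS7 rose. SOCS5 went from 3.03 FPKM in each control to 4.86 and 4.89 FPKM (log2 change 0.54, limma adjusted p 7.82e-04) and SOCS4 from 8.42 and 7.13 FPKM to 11.2 and 11.8 FPKM (0.52, 0.00494). SOCS7 went from 0.790 and 0.884 FPKM to 1.81 and 1.89 FPKM (0.63, 0.00160), and entered the test through its higher group. With the length and GC trend removed SOCS4 was at 0.27 (limma adjusted p 0.00910), SOCS5 at 0.35 (0.00130) and SOCS6, which had 0.35 before, at 0.19 (0.00952). SOCS2 had a change of -0.11 and did not pass (limma adjusted p 0.201), though it was called lower with the median of its chromosomal neighbours removed (-0.25, adjusted p 0.0105) and under 2 further alternatives. Of all 18 listed inhibitors 14 were tested, with 7 higher, 2 lower and 5 not called, beside 30.7% higher and 28.4% lower over all tested genes, and the list's median log2 change was 0.14 against 0.016. PTPN11, the phosphatase SHP2 that gp130 recruits, rose from 22.0 and 21.1 FPKM to 28.9 and 29.9 FPKM (0.43, limma adjusted p 9.81e-04). Both lower genes were the phosphatases PTPN1 (-0.27, limma adjusted p 0.00336) and PTPN2 (-0.22, 0.0166), which remove phosphate from JAKs and STATs. The PTPN2 call was lost with no filter (limma adjusted p 0.0645) and without ETS1 replicate 1 or ETS1 replicate 2. With the length and GC trend removed the PTPN2 change was -0.37 (limma adjusted p 0.00129), and on recovered reads with the trend removed it was -0.46 (voom adjusted p 6.15e-06).

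Of 31 genes listed as STAT3 targets 19 were tested, with 9 higher, 1 lower and 9 not called, beside 30.7% higher and 28.4% lower over all tested genes. The median log2 change of the list was 0.13, against 0.016 over all tested genes. VEGFA, an angiogenic growth factor, rose by 0.51 (limma adjusted p 0.00106), ZFP36, an mRNA decay factor, by 0.47 (0.00222) and JUNB, an AP-1 subunit, by 0.39 (0.00146). CCND1, the cyclin D1 gene, fell from 7.10 and 7.32 FPKM to 3.81 and 3.74 FPKM (ratio 0.524, log2 change -0.78, limma adjusted p 4.82e-04). IL6ST and STAT3 are themselves among the 9 higher targets. The acute-phase genes SERPINA3 and FGA, named after their values were seen, were listed at 0 in every library. Across the 76 genes of the 6 lists, 48 were tested, 23 were called higher and 6 lower, beside the same 30.7% and 28.4% of all 14306 genes.

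**Figure D3:**
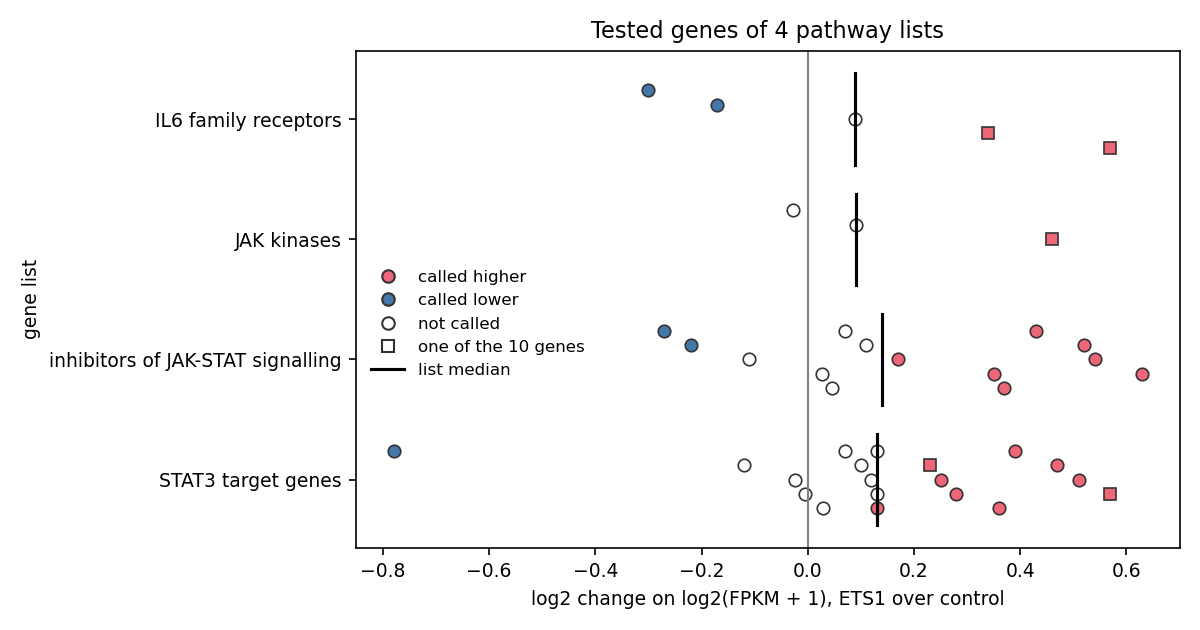
log2 change (ETS1 over control, on the log2(FPKM + 1) scale) of the tested genes in 4 of the 6 lists (receptors, kinases, inhibitors and STAT3 targets), with genes that passed filled in red (higher) or blue (lower), the 10 genes as squares and a bar at each list's median. Each of these lists but the kinases holds genes that passed in the lower direction, and CCND1 lies farthest to the left at -0.78.

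In the controls JAK1 (14.2 FPKM) was followed by STAT3 (6.44) and IL6ST (6.06), whose ranges overlapped, then by LIF (2.57), LIFR (1.68), SOCS3 (0.707), JAK2 (0.628), SOCS1 (0.473), OSMR (0.304) and IL6 (0.0262), none of which overlapped with its neighbour. In the ETS1 libraries IL6ST (9.42 FPKM) stood above STAT3 (7.70) without overlap, LIFR (2.38) and LIF (2.28) overlapped, JAK2 (1.01) stood above SOCS3 (0.898), and SOCS1 (0.679) and OSMR (0.642) overlapped. Mean JAK1 stood at percentile 73.9 of the tested genes in the controls and 81.8 in the ETS1 libraries. The tested genes whose pattern over the 4 libraries was closest to that of IL6ST, by Euclidean distance of log2(FPKM + 1) from the control mean, were SMC5, SDCBP and GOLT1B, at distances of 0.0609, 0.0635 and 0.0663.

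Gene length and base composition moved with the changes. The transcripts of LIFR and IL6ST are long (11864 and 9292 bases of exon in GENCODE 29) and poor in G and C (36.2% and 36.6%), and the trend fitted over all annotated tested genes on length and GC content alone was 0.26 at LIFR and 0.23 at IL6ST on the log2 scale. It was 0.06 at JAK1 and 0.065 at STAT3. The median change of the 25 tested genes on each side was 0.18 at JAK1, 0.11 at IL6ST, 0.084 at LIFR and -0.063 at STAT3. With the length and GC trend removed LIFR did not pass, while IL6ST (0.34, limma adjusted p 0.0136), JAK1 (0.40, 2.70e-04) and STAT3 (0.16, 0.0140) did, so that 3 of 5 genes were called higher against 29.9% of all genes in that fit (30.7% lower). Removal of the same kind of trend from the recovered reads, a choice made after seeing the data, left LIFR at 0.19 (adjusted p 0.00946), OSMR at 0.94 (7.40e-05), JAK2 at 0.49 (0.00267) and STAT3 at 0.13 (0.0180); 6 of 9 genes were called higher and 0 lower there, against 24.4% and 32.4% of all genes. The part of length and GC content in the differences was not tested further.

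**Figure D4:**
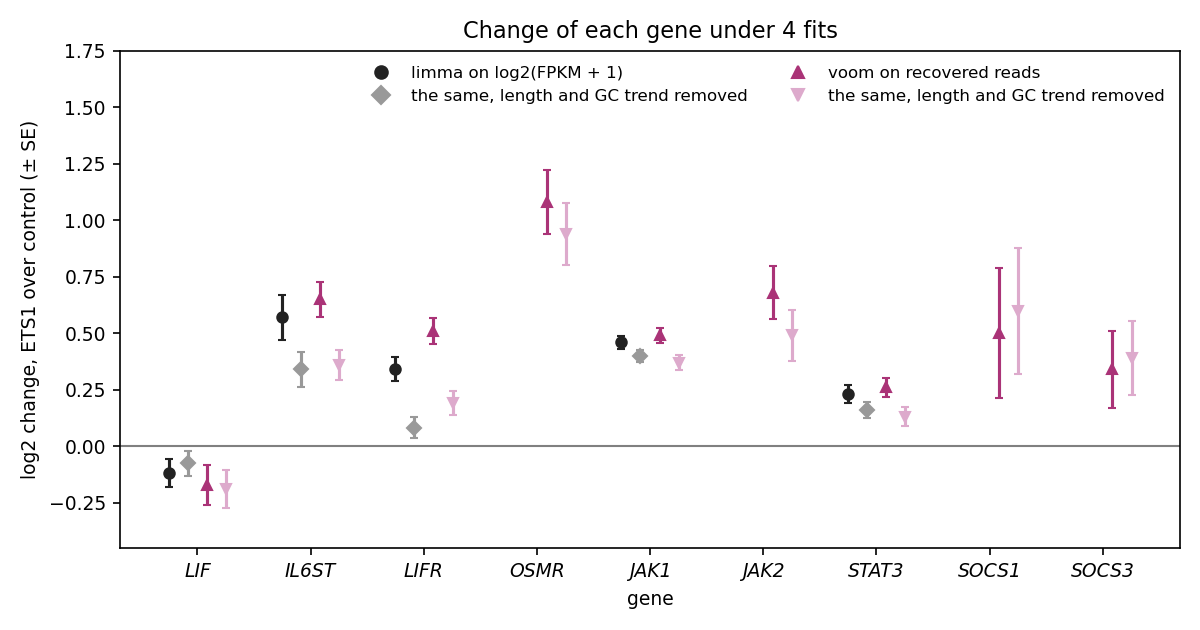
log2 change (ETS1 over control) with its standard error for 9 genes under limma on log2(FPKM + 1), voom on recovered reads, and each with a length and GC trend removed; OSMR, JAK2, SOCS1 and SOCS3 were under the filter of the first kind of fit, and IL6 was too low for each. When the trend is removed LIFR drops from 0.34 to 0.082 in limma and from 0.51 to 0.19 in voom. In voom OSMR is highest without and with the trend removed, at 1.08 and 0.94.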

How the data were processed

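RNA of 4 TE5 libraries was sequenced, and the authors deposited FPKM per gene name. The submitters' processing notes name HISAT2, HTSeq, DESeq2 and GRCh38; which annotation was used, and whether strand was, is not given in the sources used here. A second deposited table repeats the FPKM values (0 cells differed) and, per the file headers, adds the authors' mean normalized count (a signal averaged over the libraries), log2 fold change with its error, p-value and adjusted p-value for 16652 genes, 969 of them without an adjusted p-value.

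The 10 genes and the 6 lists were chosen with earlier results of these data known. FPKM was taken as log2(FPKM + 1), genes with a mean of at least 1 FPKM were kept, and limma 3.58.1 (R 4.3.3) was fitted with a group term and an intensity trend, with 2 residual and 2.84 prior degrees of freedom. Each p-value is two-sided and was adjusted by Benjamini-Hochberg across every gene of its fit. Fold changes on this scale understate those of low genes. Reads were recovered from FPKM and the mean normalized count: 99.7% of values fell within 0.05 of a whole number. For genes outside the second table, such as IL6 and OSMR, the whole-number set nearest the GENCODE 29 exon length was taken. Replicates differed by more than counting noise (mean chi-square per gene 3.91 in each group). The main fit was also run on simulated reads with known changes. It recovered 70% of genes changed 1.25-fold, 96.7% of those changed 1.5-fold and 100% of those changed 2-fold. The changed genes were drawn from genes with many reads and a fixed replicate spread, so low genes were not covered. Positions come from GENCODE 29 and matched 84% of tested genes.

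Named beside the 10 genes were ETS1, up to 4 called genes per list, others of a list with a mean of 1 FPKM, and the 3 genes closest in pattern to IL6ST, which had the largest called change of the 5 tested on the log2(FPKM + 1) scale. Alternatives were another pseudocount, 3 other filters, trimmed-mean and quantile scaling, a replicate block, no variance trend, voom, the authors' values, removal of a length and GC trend or of the median of 25 neighbours on each side, and leaving out each library. Some genes of the lists are not reported here.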

Additional observations from a re-analysis of the deposited data

How the results depend on the processing

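JAK1, STAT3 and LIF kept their direction and side of the threshold under every alternative that tested them, and IL6ST under all but the absence of a filter (0.57, adjusted p 0.0544). LIFR lost the threshold with the length and GC trend removed (0.082, adjusted p 0.179) and with the local chromosomal median removed as well, a setting added after the data were seen (0.07, adjusted p 0.283). On recovered reads, a scale with no pseudocount of 1 FPKM, the change was 1.08 for OSMR, 0.68 for JAK2, 0.50 for SOCS1 and 0.34 for SOCS3, and with the trend also removed, likewise added later, 0.94, 0.49, 0.60 and 0.39. The authors' deposited table gives 0.58 for JAK2. Over all genes, 2562 were called higher at a mean of at least 5 FPKM, and between 2845 and 3962 (lower: 2945 to 3720) when 1 library was left out, the fewest without ETS1 replicate 2. Over the lists, 15 genes were called higher at a mean of at least 5 FPKM, 3 lower with no filter, 10 lower on recovered reads with the trend removed, and 21 to 23 higher and 3 to 6 lower when 1 library was left out. TYK2 (-0.027, adjusted p 0.426) turned to 0.091 (0.0444) with the local chromosomal median removed and was called lower, at -0.075 (0.0437), on recovered reads with the trend removed. STAT5B (0.0066, 0.855) turned to -0.092 (0.0321) in that last fit. MYC (-0.12, 0.0653) was called lower under 5 alternatives: trimmed-mean scaling (-0.17, 0.0262), recovered reads without (-0.13, 0.0337) and with the trend removed (-0.13, 0.0187), without control replicate 1 (-0.16, 0.0318) and the authors' deposited table (-0.14, 0.0370). It turned to 0.17 (0.0311) with the local median and the trend removed, and the cause of these turns was not tested.

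The labels give the libraries of each group the numbers 1 and 2 without saying what they share. Deviations of same-numbered libraries from their group means had a correlation of -0.0456 across genes. With the replicate number as a block, 3712 genes were called higher and 3571 lower, and the calls of the 10 genes were as without it. Depth limits IL6, with 12 reads in all libraries together, and SOCS1.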
